A study of Mus musculus with 12 samples.

Results

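The 10 genes described here encode albumin (Alb), transthyretin (Ttr), 7 apolipoproteins (Apoa1, Apoa2, Apoa4, Apoa5, Apob, Apoc3 and Apoe) and the microsomal triglyceride transfer protein (Mttp). They were taken by gene symbol, and the values of all transcripts that carry a symbol were added in each liver. All 10 were found among 23651 symbols with a value above 0, in 35 of 169430 transcripts, and all 10 were among the 13158 genes with a mean of at least 0.5 that were tested. RNA from 12 mouse livers was compared, with 3 livers in each of 4 groups. The mice were male C57/BL6N by the study's methods, and their age was not given. The control group was labelled WT, with no injection named. The other 3 groups received carbon tetrachloride (CCl4), a solvent that injures hepatocytes around the central vein, diluted in olive oil, into the peritoneum. Each of the 2 weekly injections over 8 weeks was 5 mL/kg of this dilution, of which CCl4 was the smaller part. The model group had CCl4 alone, the silibinin group also had silibinin, a flavonolignan of milk thistle, and the phloridzin group also had phloridzin, a glucoside that inhibits sodium-glucose transporters, at the highest of the doses the study used. Both drugs were started in week 5 and the livers were taken after week 8. Values are in FPKM, the fragments per kilobase of transcript and per M fragments of the library, and libraries held between 83.7 and 110.9 M fragments, with model liver 1 the lowest.

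Hepatocytes secrete most of the protein of blood plasma, and albumin and transthyretin, which carries thyroid hormone and the retinol-binding protein, are among the best known of these products. Lipids leave the liver in very low density lipoprotein, a particle built on 1 molecule of apolipoprotein B that Mttp loads with triglyceride in the endoplasmic reticulum. The smaller apolipoproteins exchange between particles in plasma, where apolipoproteins A-I and A-II form high density lipoprotein, C-III and A-V act in opposite directions on lipoprotein lipase, and E is a ligand of hepatic receptors.

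Markers of hepatocytes were present in all 12 livers and summed to between 6960.6 and 12480 FPKM in the 12 livers, with fibrinogen beta (Fgb) the most abundant. Among the 10 genes, Alb had the highest mean over the 12 livers at 18384 FPKM, which was rank 1 of all symbols. The next were Apoa2 at 2055 FPKM, Apob at 1261 and Ttr at 1044. Apoa1 had a mean of 737 FPKM and Apoe one of 574, and the lower levels were those of Apoc3 (219), Apoa5 (147), Apoa4 (134) and Mttp (88.7). Between neighbours in this order the livers overlapped except between Alb, with a lowest liver of 10970 FPKM, and Apoa2, with a highest of 2980 FPKM. The 10 genes together took 6.22% ± 1.44 (SD, n = 3) of the FPKM of all genes with a symbol in control livers, 8.27% ± 1.69 in model livers, 9.34% ± 2.26 with silibinin and 8.16% ± 1.29 with phloridzin, and most of this was Alb.

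**Figure D1:**
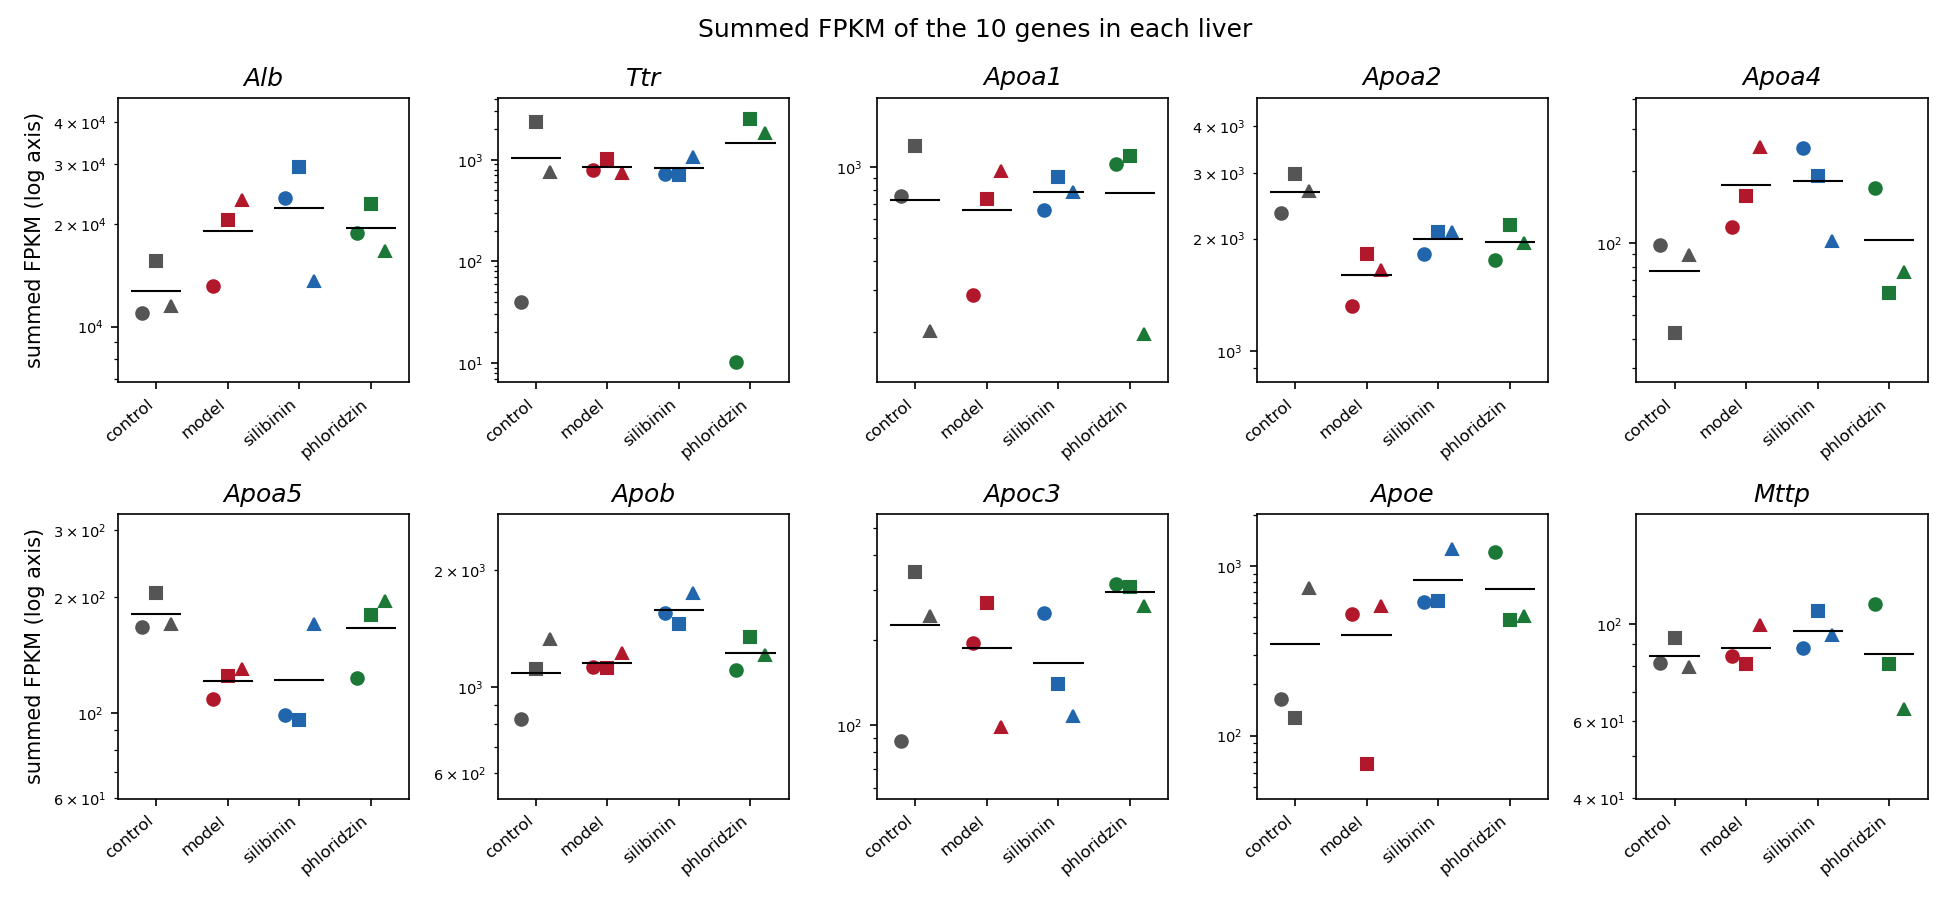
Summed FPKM of each of the 10 genes in each liver on a log axis, by group, with circle, square and triangle for replicates 1, 2 and 3 and a line at the group mean. The 3 control livers lay above the 3 model livers for Apoa2 and Apoa5 and below them for Apoa4, while Ttr was at 39.8 FPKM in control liver 1 and at 10.3 FPKM in phloridzin liver 1.

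Model livers were compared with control livers to see how these genes differ after CCl4. Apoa2 fell, and 0 of the 10 genes reached the threshold of differential expression (DE), for which limma's p, adjusted by Benjamini-Hochberg, has to be under 0.05 and the log2 fold change beyond 1 or -1. Of all genes tested, 10.5% were DE in this comparison, 34.9% passed the adjusted p alone and 3.8% fell by it. At an unadjusted p under 0.05 there were 3 of the 10, Apoa2, Apoa4 and Apoa5, beside 45.8% of all genes. The same 3 had groups that did not overlap, 1 higher and 2 lower in model livers, against 52.0% of all genes. The median log2 fold change of the 10 was 0.08, beside 0.34 over all genes.

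Apoa2 encodes the second most abundant protein of high density lipoprotein. Its level was 2340, 2980 and 2688 FPKM in control livers 1 to 3 and 1318, 1822 and 1650 FPKM in model livers. With silibinin it was 1820, 2078 and 2089 FPKM, and with phloridzin 1750, 2181 and 1943 FPKM. Every control liver was above every liver of the 3 CCl4 groups, and both drug groups overlapped the model group. In model against control the log2 fold change was -0.75 (SE 0.21, 95% interval -1.20 to -0.29), with an adjusted p of 0.018 in limma. The call was lost without control liver 2, with a log2 fold change of -0.66, and without model liver 1, at -0.62. It was also lost with the total FPKM of each library scaled to 1e6, at -0.53, and with no filter on low values, where the fold change was the same and the SE 0.31. Over the 21 alternatives the adjusted p in limma was between 0.0051 and 0.12. Against control, the log2 fold change was -0.42 with silibinin (adjusted p = 0.28 in limma) and -0.45 with phloridzin (adjusted p = 0.22). Against model it was 0.33 and 0.30, with adjusted p = 0.33 and 0.38 in limma, and neither difference passed the test. Without model liver 1 these were 0.20 and 0.17. Hepatocyte markers summed to between 10136 and 12380 FPKM in control livers and between 8088 and 9495 FPKM in model livers. Among them Cyp2e1, the enzyme that activates CCl4, had a mean of 2812 FPKM in control and 504 FPKM in model livers. That gene made up much of the difference between the control and model sums. The mean of Hamp was 728 and 1649 FPKM. The part of these markers in the level of Apoa2 was not tested. In bulk liver, fewer hepatocytes and less RNA per hepatocyte cannot be told apart.

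Apoa5 and Apoa4 lie beside Apoa1 and Apoc3 within 43.3 kb of chromosome 9 (46228580 to 46271919, GRCm38). Apoa5, which favours the breakdown of plasma triglyceride, was at 168, 206 and 170 FPKM in control livers and at 109, 124 and 130 FPKM in model livers. It was at 98.9, 95.7 and 170 FPKM with silibinin and at 124, 180 and 196 FPKM with phloridzin. All 3 model livers were below all 3 control livers, and silibinin liver 3 stood with the controls while the other silibinin livers were below the model group. The log2 fold change in model against control was -0.58 (SE 0.24, 95% interval -1.11 to -0.04), which did not pass at an adjusted p of 0.086 in limma. With the transcript of the highest mean in place of the sum it was -1.54 and did not pass either. In model liver 2 that transcript, ENSMUST00000121598, was at 14.9 FPKM, against 79.4 to 187 FPKM in the other 11 livers, and ENSMUST00000034584 was at 84.1 FPKM there and at most 3.67 FPKM elsewhere. Without silibinin liver 3 the log2 fold change of the sum, still -0.58, passed, with an SE of 0.19. Without control liver 2 it was -0.48 (adjusted p = 0.21 in limma), without model liver 1 -0.50 (adjusted p = 0.20) and with totals scaled -0.36 (adjusted p = 0.27). Without silibinin liver 3 Apoa5 was also lower in silibinin than in control livers, at -0.88 (adjusted p = 0.039 in limma).

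Apoa4, a lipid-binding protein made mainly in the intestine and in mouse also in the liver, went the other way. Its level was 98.0, 42.0 and 89.1 FPKM in control livers and 117, 158 and 253 FPKM in model livers. It was 251, 191 and 102 FPKM with silibinin and 171, 62.3 and 76.1 FPKM with phloridzin. Every model liver and every silibinin liver was above every control liver, and phloridzin livers 2 and 3 lay within the range of the controls. The log2 fold change was 1.21 in model against control (SE 0.48, adjusted p = 0.073 in limma) and 1.23 in silibinin against control (SE 0.48, adjusted p = 0.17). In phloridzin against model it was -0.84 with a 95% interval of -1.90 to 0.23 (adjusted p = 0.29 in limma). Without phloridzin liver 1 this value was -1.27 (adjusted p = 0.097 in limma). In model against control it passed at an adjusted p of 0.044 in limma without phloridzin liver 1, with the same fold change, and it was 0.83 without control liver 2 (adjusted p = 0.23) and 0.74 with median ratios (adjusted p = 0.26). An antisense gene, Gm47528, overlaps Apoa4 and was between 0.00871 and 5.77 FPKM. Whether strand was used in the processing is not given in the sources used here, so reads of such pairs cannot be told apart. Of 10 intestine markers, Cdx1, Cdx2 and Sis were at 0 in all 12 livers, Fabp2 was between 11.4 and 31.1 FPKM and Lgals4 between 0.63 and 2.31 FPKM, and the other 5 were at most 0.589 FPKM.

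The sequences upstream of these 3 genes are shown because their groups did not overlap between model and control livers. They are up to 250 bases before the gene's start in RefSeq GRCm38.p6 on the plus strand, ended before the first base of any transcript of the gene in the table: chr1:171224804-171225053 for Apoa2, chr9:46240594-46240695 for Apoa4 and chr9:46268358-46268607 for Apoa5. Capitals mark matches on either strand to TATAAA, the TATA box, to TGNACTTTG, an HNF4 type motif, to CACGTG, an E box, or to the palindromic HNF1 motif. These motifs were chosen after the data were seen.
Apoa2: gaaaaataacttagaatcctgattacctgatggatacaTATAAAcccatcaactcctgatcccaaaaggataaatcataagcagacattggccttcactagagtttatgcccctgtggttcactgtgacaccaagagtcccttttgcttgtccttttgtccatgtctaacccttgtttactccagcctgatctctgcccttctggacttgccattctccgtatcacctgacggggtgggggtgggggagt
Apoa4: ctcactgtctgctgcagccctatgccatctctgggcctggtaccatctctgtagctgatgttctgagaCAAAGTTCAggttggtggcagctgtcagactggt
Apoa5: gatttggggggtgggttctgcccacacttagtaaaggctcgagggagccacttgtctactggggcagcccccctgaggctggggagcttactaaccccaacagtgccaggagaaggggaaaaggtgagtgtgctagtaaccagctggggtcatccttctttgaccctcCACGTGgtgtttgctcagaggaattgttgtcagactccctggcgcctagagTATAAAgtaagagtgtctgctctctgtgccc
TATAAA was present in the stretches of Apoa2 and Apoa5, TGNACTTTG in that of Apoa4, and CACGTG in that of Apoa5. The TATAAA of Apoa2 lay near the end of its stretch that is farthest from the gene. Over the 250 bases before the start of 32851 promoters, TATAAA was in 12.4%, TGNACTTTG in 1.19%, CACGTG in 6.02% and the HNF1 motif in 0.00913%, with 0 matches in the 8 genes. The stretch printed for Apoa4 held only 102 bases, so the share for TGNACTTTG is over longer windows. Of the 10 genes 8 were matched by symbol, and TATAAA was in 3 (Apoa2, Apoa5 and Apob). A match is a description of the letters only.

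Apob encodes the large structural protein of very low density lipoprotein, and its level was highest in the silibinin group. It was at 824, 1112 and 1329 FPKM in control livers and at 1123, 1116 and 1220 FPKM in model livers. With silibinin it was at 1547, 1456 and 1744 FPKM, and with phloridzin at 1108, 1341 and 1211 FPKM. All 3 silibinin livers were above the 9 other livers. The log2 fold change was 0.45 in silibinin against model (SE 0.20, adjusted p = 0.17 in limma). It was 0.56 against control (SE 0.20, adjusted p = 0.15 in limma) and -0.38 in phloridzin against silibinin (SE 0.20, adjusted p = 1). No difference passed the test in FPKM as deposited. In silibinin against control Apob was at 0.31 with median ratios (adjusted p = 0.52 in limma). With totals it passed there, at 0.75 (adjusted p = 0.038 in limma). Mttp, its lipid-loading partner, ranged from 64.0 to 111 FPKM, both in the phloridzin group, and its log2 fold changes in the 6 comparisons lay between -0.21 and 0.19.

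Silibinin livers were compared with model livers to see the effect of the drug in CCl4-treated mice. Of the 10 genes, 0 were DE and 0 passed the adjusted p in limma, and 0 had an unadjusted p under 0.05. Among all genes 4.0% were DE, 14.1% passed the adjusted p and 29.2% had an unadjusted p under 0.05. Groups did not overlap for 2 of the 10, Apob and Apoe, both higher with silibinin, against 36.7% of all genes. Apoe, the receptor ligand that is also made by macrophages, was at 521, 68.1 and 582 FPKM in model livers and at 609, 623 and 1259 FPKM with silibinin. In control livers it was at 164, 127 and 742 FPKM, and in phloridzin livers at 1206, 481 and 507 FPKM. The control and model groups each held livers under 200 FPKM and over 500 FPKM, and the fold in silibinin against model, 2.84, had a 95% interval on the log2 scale of -0.41 to 3.41 and an adjusted p of 0.29 in limma. Without model liver 2 the log2 fold change was 0.50, and over the 21 alternatives between 0.50 and 2.04.

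Phloridzin livers gave a similar count against model livers. Of the 10 genes 0 were DE, 0 passed the adjusted p in limma and 0 had an unadjusted p under 0.05, against 3.52% DE, 12.9% past the adjusted p and 27.8% past the unadjusted p among all genes. Leaving out 1 liver at a time moved the share past the adjusted p to between 6.63% and 16.0% in this comparison and to between 8.47% and 17.3% in silibinin against model. For 0 of the 10 were the groups apart, against 30.6% of all genes. Apoc3, which slows the clearance of triglyceride, was at 316, 309 and 264 FPKM with phloridzin and at 195, 270 and 98.1 FPKM in model livers. It was at 88.0, 348 and 243 FPKM in control livers and at 249, 140 and 108 FPKM with silibinin. Model liver 2 lay within the range of the phloridzin livers and control liver 2 above it, while the other model and control livers were below it. The log2 fold change against model was 0.77 (SE 0.51, adjusted p = 0.37 in limma), and over the 21 alternatives between 0.36 and 1.35.

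The direct comparison of phloridzin with silibinin asks whether the 2 drugs differed. For the 10 genes 0 were DE, 0 passed the adjusted p in limma and 0 had an unadjusted p under 0.05. Among all genes only 3 were DE, 0.0228%, the same share, 0.0228%, passed the adjusted p alone, and 3.75% had an unadjusted p under 0.05. Leaving out 1 liver at a time moved the number of DE genes to between 1 and 5, and with only the 2 groups compared it was 0. Apoc3 was higher and Apob lower in every phloridzin liver than in every silibinin liver, 2 of the 10 against 7.99% of all genes. The 95% interval of the log2 fold change was -0.83 to 0.08 for Apob and -0.21 to 2.05 for Apoc3. These intervals and the standard errors of the 10 genes, 0.19 to 1.90, do not show that the drugs acted alike.

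Both drug groups were also compared with the controls. In silibinin against control 0 of the 10 were DE and 0 passed the adjusted p in limma, against 1.98% and 5.02% of all genes, and 3 had an unadjusted p under 0.05 (Apoa4, Apoa5 and Apob), beside 21.5% of all genes. The shares of all genes DE and past the adjusted p were 0.783% and 1.03% without silibinin liver 1 and 3.05% and 9.43% without phloridzin liver 1. Groups did not overlap for Apoa2, Apoa4 and Apob, 3 of the 10 against 30.4% of all genes. In phloridzin against control 0 of the 10 were DE, 0 passed the adjusted p in limma and 0 had an unadjusted p under 0.05, against 3.02% DE, 7.99% past the adjusted p and 24.6% past the unadjusted p among all genes. Leaving out 1 liver at a time moved the shares of all genes here to between 1.59% and 4.82% DE and between 2.67% and 9.73% past the adjusted p. Groups did not overlap for Apoa2 and Alb, 2 of the 10 against 29.8% of all genes. Comparisons against the same group share its livers and are not independent.

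**Figure D2:**
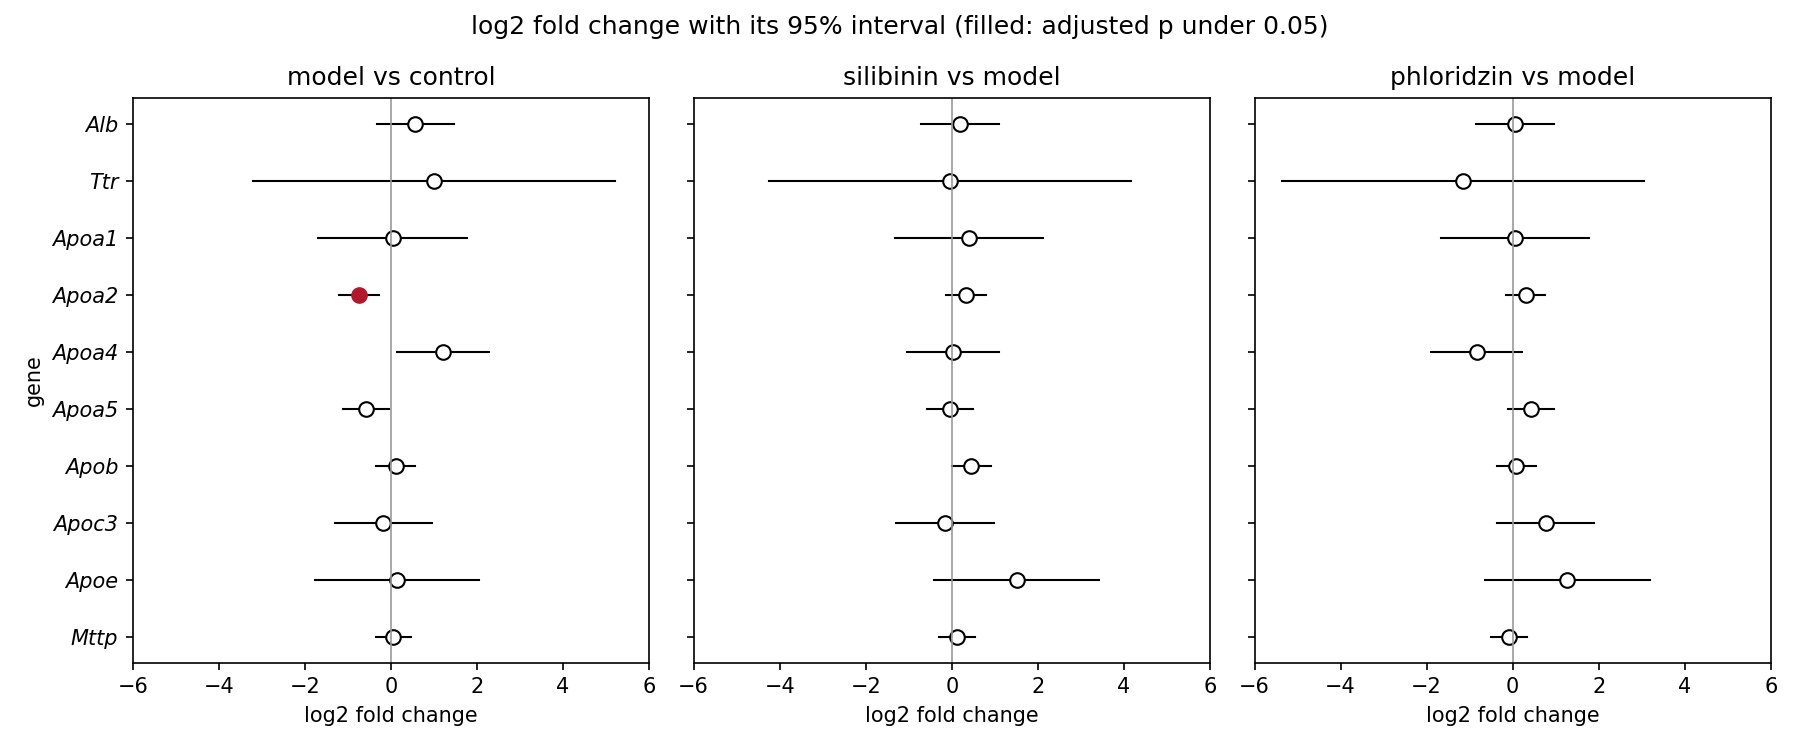
log2 fold change of each gene with its 95% interval in limma, for model against control and for each drug group against model. Apoa2 in model against control, at -0.75, is the filled point, and the interval of Ttr runs from -3.20 to 5.21 in that comparison.

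Alb, the main carrier protein of plasma, was at 10970, 15620 and 11509 FPKM in control livers and at 13183, 20585 and 23528 FPKM in model livers. It was at 23807, 29357 and 13602 FPKM with silibinin and at 18895, 22883 and 16670 FPKM with phloridzin. The 3 phloridzin livers were above all controls, while 1 model liver and 1 silibinin liver lay within the controls' range. The log2 fold change in model against control was 0.56 (SE 0.41, adjusted p = 0.30 in limma), and in phloridzin against control 0.62 (SE 0.41, adjusted p = 0.39). With median ratios these were 0.09 (adjusted p = 0.90 in limma) and 0.33 (adjusted p = 0.70).

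Ttr varied more than any of the other 9 genes. It was at 39.8, 2331 and 759 FPKM in control livers and at 790, 1009 and 732 FPKM in model livers. It was at 717, 706 and 1065 FPKM with silibinin and at 10.3, 2530 and 1837 FPKM with phloridzin. The highest liver was 245 times the lowest, both in the phloridzin group, while the model and silibinin livers lay close together. The log2 fold change in model against control was 1.01 with an SE of 1.90, and over the 21 alternatives it was between -0.67 and 2.25. Apoa1, the main protein of high density lipoprotein, also had single low livers: it was at 752, 1224 and 202 FPKM in control livers, at 286, 731 and 965 FPKM in model livers, at 655, 905 and 782 FPKM with silibinin and at 1034, 1108 and 196 FPKM with phloridzin. Its low livers, control 3, model 1 and phloridzin 3, were not those of Ttr. The pooled SD within groups, on the log2 scale, was 2.67 for Ttr, 1.20 for Apoe, 1.08 for Apoa1, 0.71 for Apoc3 and 0.66 for Apoa4, against a median of 0.27 over the 807 genes with a mean over 50 FPKM. It was 0.18 for Apoa2, 0.20 for Apob and 0.23 for Mttp, under that median.

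The 35 transcripts behind the sums showed how the values were divided in each liver, a description made after the values were seen. Ttr and Apoa4 each had 1 transcript, and for Alb and Mttp the main transcript held at least 98.6% of the sum in every liver. Apoa1 had 2, and ENSMUST00000034588 was at 42.4 FPKM in control liver 3 and 17.1 FPKM in phloridzin liver 3, against 1097 FPKM in control liver 2, while ENSMUST00000132155 stayed between 53.6 and 257 FPKM. For Apoe, ENSMUST00000173739 took between 22.5% and 97.8% of the sum, and 4 transcripts led in different livers. ENSMUST00000003066 was at 387 FPKM in silibinin liver 2 and 332 FPKM in phloridzin liver 3 and listed at 0 in the 10 others, and ENSMUST00000174355 was at 407 FPKM in silibinin liver 1 and at most 16.0 FPKM elsewhere. For Apoc3 the leading transcript, ENSMUST00000118649, was between 14.9 and 25.3 FPKM in control liver 1, model liver 3 and silibinin livers 2 and 3, and at least 133 FPKM in the other 8.

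Apob showed a division that followed 4 livers. The transcript ENSMUST00000171239 was at 192 and 230 FPKM in control livers 1 and 3 and at 178 and 202 FPKM in phloridzin livers 1 and 3, and at most 14.5 FPKM in the 8 others. ENSMUST00000037520 was at 92.7, 66.4, 191 and 106 FPKM in these 4 livers and at most 0.0568 FPKM elsewhere. The main transcript, ENSMUST00000037811, was at 529, 1009, 722 and 882 FPKM there and at least 1099 FPKM in the others. The cause of these divisions was not tested.

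**Figure D3:**
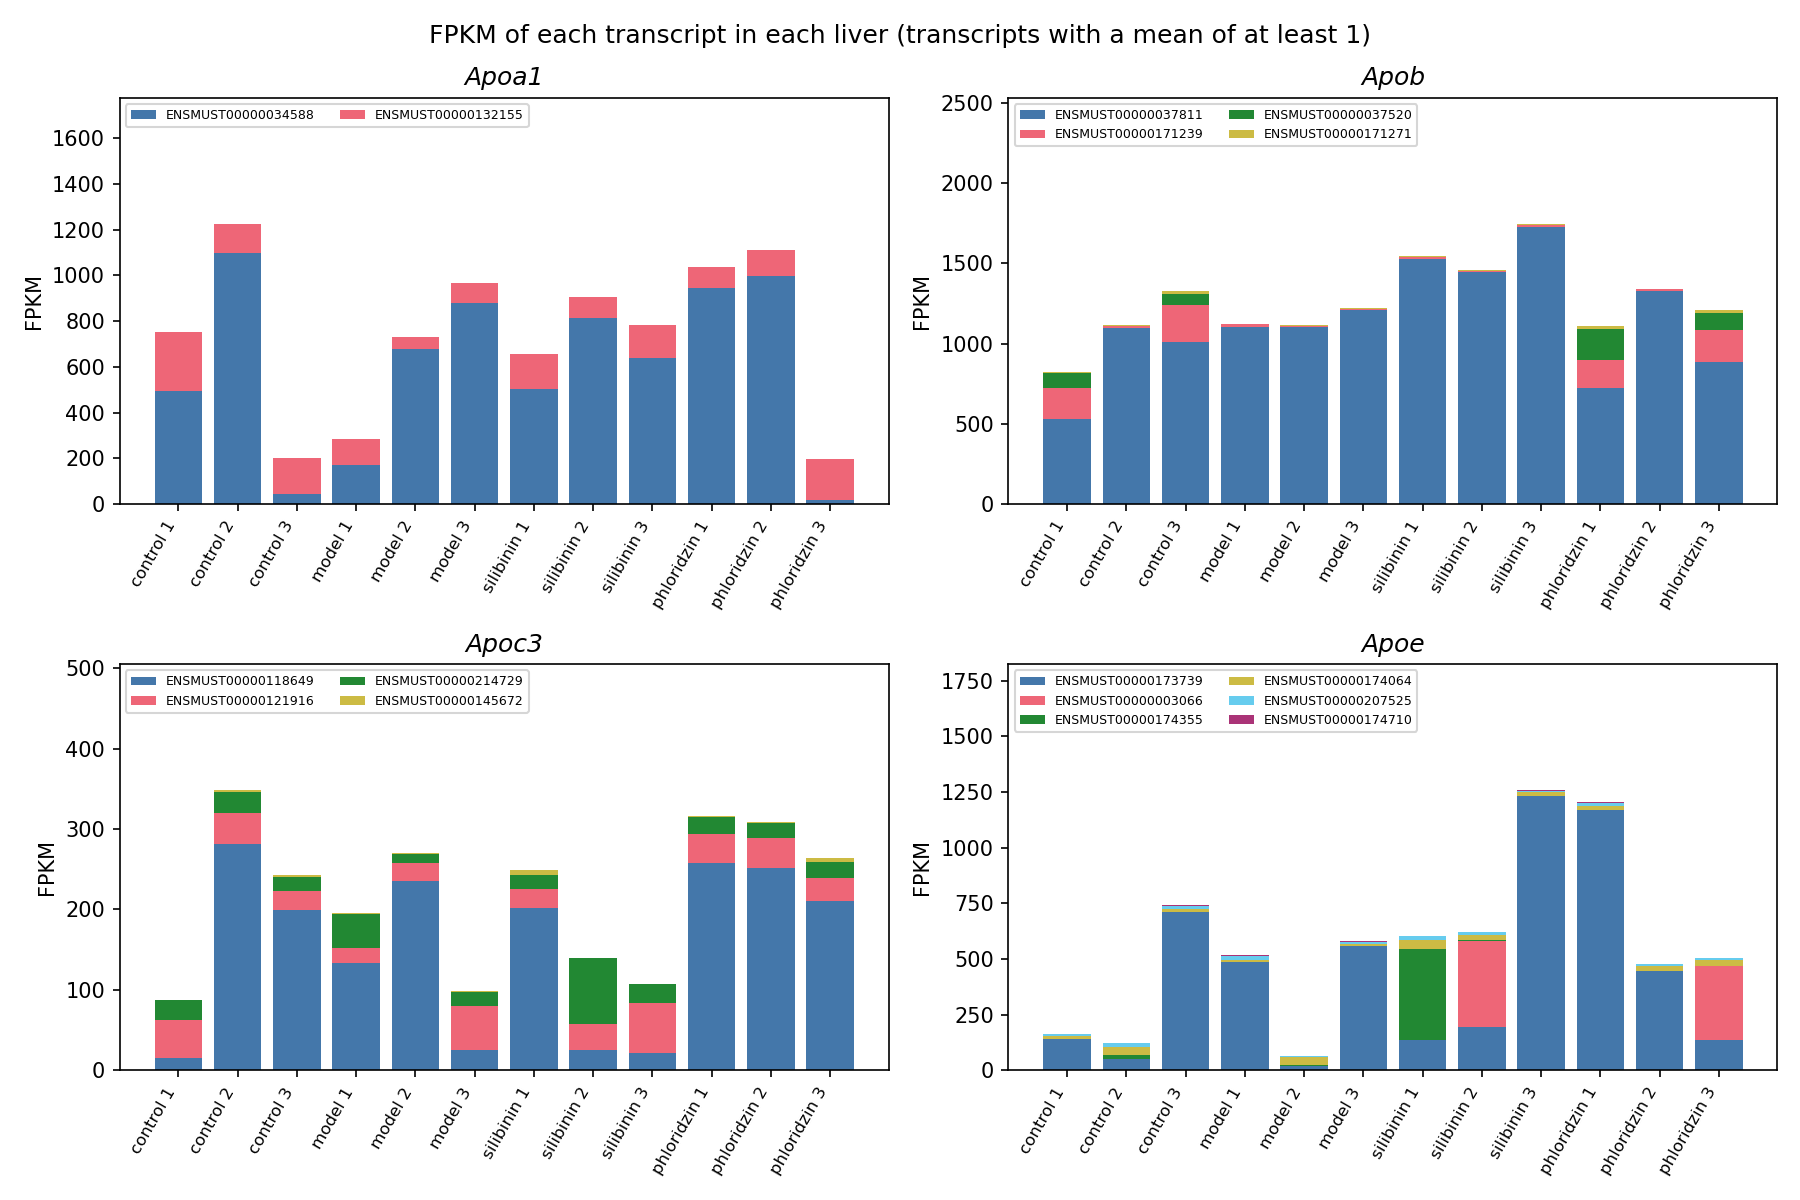
FPKM of the transcripts of Apoa1, Apob, Apoc3 and Apoe in each liver, stacked from 0, for transcripts with a mean of at least 1 FPKM. Transcripts of Apob other than ENSMUST00000037811 make up visible parts in control livers 1 and 3 and phloridzin livers 1 and 3, and the leading transcript of Apoe differs between livers.

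The scale between libraries bears on the direction of several of these genes. Most genes were higher in model than in control livers in FPKM as deposited, with a median log2 fold change of 0.34, and 1240 DE genes were higher and 142 lower. With FPKM scaled by median ratios, for which the size factors were 0.80 to 0.86 in control and 1.14 to 1.19 in model livers, the median was -0.01, a shift of -0.35, with 501 higher and 481 lower. Scaled to equal totals, all at 1e6 FPKM, the median was 0.56, a shift of 0.22, with 2907 higher and 117 lower. The totals were 427802 to 539372 FPKM as deposited, so that scaling also raised all values against the pseudocount of 1 and the filter of 0.5. With it 14692 genes were tested, and the parts of the scaling, the pseudocount and the filter in these counts were not told apart. Relative to the median of all genes, Apoa2 was at -1.09 as deposited, -1.21 with median ratios and -1.08 with totals, and Apoa5 at -0.91, -1.04 and -0.92. Apoa4 was above that median under the 3 scalings, at 0.87, 0.75 and 0.88. Under each scaling 3 of the 10 were above the median of all genes and 7 below it, while the sign of Apoa1, Apob, Apoe and Mttp turned negative with median ratios and that of Apoc3 turned positive with totals.

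The other comparisons moved too. With median ratios the median of all genes shifted by 0.16 in silibinin against model, and the DE genes went from 98 higher and 428 lower to 191 and 239. In phloridzin against model the shift was 0.14, from 79 and 384 to 140 and 240, and with totals it was -0.11. Above the median of all genes stood 9 of the 10 in silibinin against model as deposited and 10 under either scaling, and 8 of the 10 in phloridzin against model under all 3. Against control the shift with median ratios was -0.19 for silibinin, from 229 and 32 to 145 and 57. For phloridzin it was -0.22, from 360 and 38 to 181 and 65. With totals the shifts against control were 0.18 and 0.11. The DE genes with totals were then 836 higher and 48 lower for silibinin, and 916 and 43 for phloridzin. Against model they were 121 and 648 for silibinin with totals, and 77 and 742 for phloridzin.

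With median ratios, 2 of the 10 genes were DE in model against control, beside 7.49% of all genes: Apoa2 at -1.22 (adjusted p = 0.0051 in limma) and Apoa5 at -1.05 (adjusted p = 0.024). With totals, 1 of the 10 was, beside 20.6% of the 14692 genes then tested: Apoa4 at 1.44 (adjusted p = 0.026 in limma), and Apoa2 no longer passed at -0.53 (adjusted p = 0.078). Over the 21 alternatives, the adjusted p of Apoa2 in limma was between 0.0051 and 0.12, that of Apoa4 between 0.026 and 0.26 and that of Apoa5 between 0.024 and 0.27. Transcripts without a position or symbol, assembled by the authors, held 25.5% to 29.8% of the FPKM in control livers and 19.4% to 21.3% in the other 9, and their part in the scale was not tested.

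**Figure D4:**
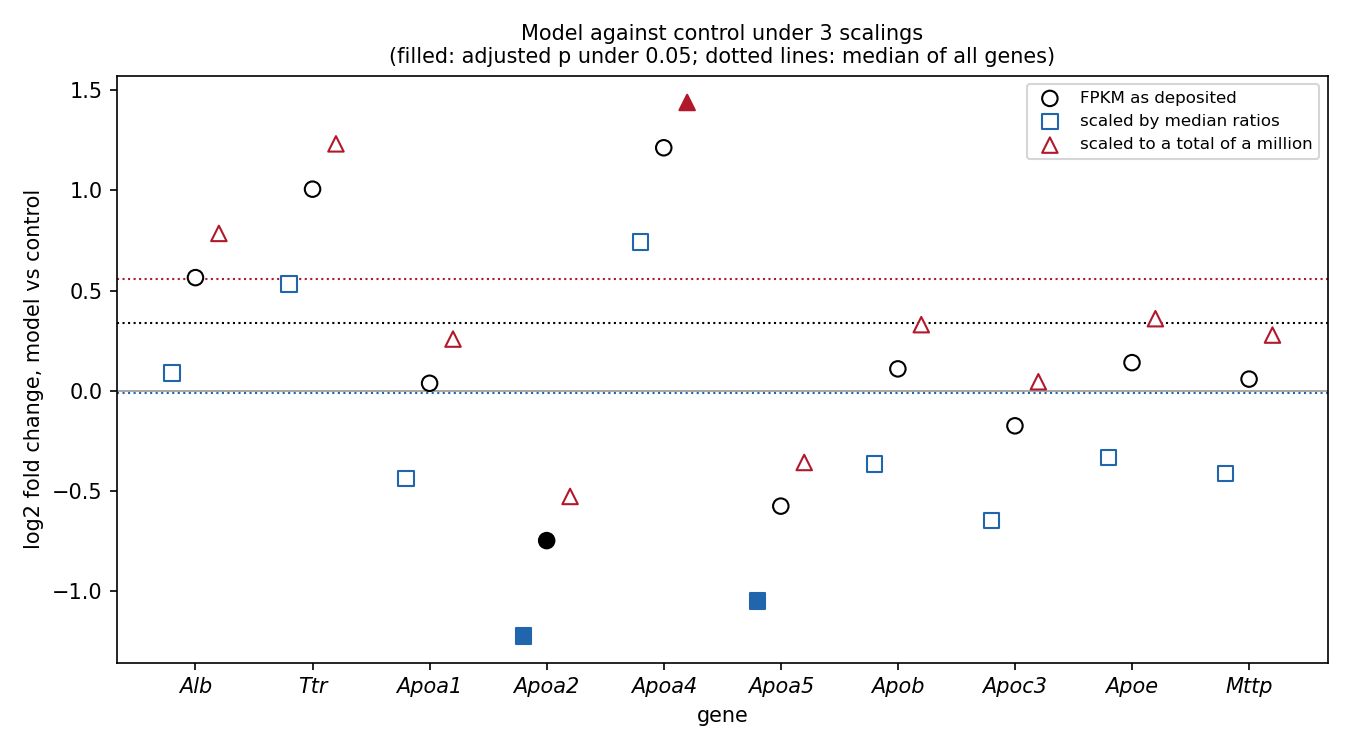
log2 fold change of each gene in model against control under 3 scalings, with filled points for an adjusted p under 0.05 in limma and dotted lines at the median of all genes. The points move together with the medians of 0.34, -0.01 and 0.56, and Apoa2 and Apoa5 lie below their median under each.

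The other genes of the pathway were described by lists, each set beside all genes. In model against control, of the 13158 genes tested, 4094 rose and 500 fell, and with median ratios 1647 rose and 1662 fell of 13113. Of 8 other apolipoproteins 7 were tested in model against control, 0 rose and 1 fell, Apof, named after its values were seen, at -0.58 (SE 0.14, adjusted p = 0.011 in limma). Their median log2 fold change was -0.52 against 0.34 for all genes, and their summed level was 2853 ± 250 FPKM (SD, n = 3) in control livers and 2092 ± 148 FPKM in model livers. In silibinin against model Apof rose by 0.57 (adjusted p = 0.023 in limma). At an unadjusted p under 0.05 there were 2 of the 7 in model against control. With median ratios 4 of the 7 fell in model against control.

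Of 21 genes of lipoprotein assembly and secretion, 5 rose and 2 fell in model against control, with a median of 0.14. With median ratios 2 rose and 3 fell, with a median of -0.29. The 2 that fell as deposited, named after their values were seen, were Dgat2 by 0.61 and Pla2g12b by 0.44 (adjusted p = 0.023 and 0.029 in limma). Both also fell with median ratios. Arf4, a small GTPase of the secretory pathway, was at 34.1, 32.6 and 32.7 FPKM in control livers and at 87.8, 73.0 and 84.3 FPKM in model livers. It was at 34.2, 34.0 and 29.7 FPKM with silibinin and at 42.4, 30.8 and 29.8 FPKM with phloridzin. It rose in model livers by 1.27 (SE 0.15, adjusted p = 0.00023 in limma) and against model it fell by 1.24 with phloridzin and also fell with silibinin (adjusted p = 0.0005 and 0.00035), in each case with no overlap of the groups. Surf4, a cargo receptor for secreted proteins, rose by 1.08 and fell by 0.93 and 0.97, and Sec24d, of the COPII coat, rose by 0.93 and fell by 0.98 and 1.31, with adjusted p between 0.0028 and 0.013 in limma. The rise of Sec24d and its fall with silibinin did not pass with median ratios. The rises of Arf4 and Surf4 were then 0.81 and 0.61 (adjusted p = 0.00091 and 0.044 in limma). Ces1d, a carboxylesterase that mobilises stored triglyceride, rose in silibinin against model by 1.35 (SE 0.40, adjusted p = 0.046 in limma).

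Of 14 tested genes of lipoprotein receptors and lipolysis, 2 rose and 1 fell in model against control, with a median of -0.10. With median ratios 2 rose and 3 fell, with a median of -0.47. Angptl8, a secreted inhibitor of lipoprotein lipase, was at 8.20, 11.1 and 10.1 FPKM in control livers and at 35.5, 29.9 and 90.7 FPKM in model livers. It was at 9.07, 9.61 and 5.95 FPKM with silibinin and at 11.6, 8.65 and 3.76 FPKM with phloridzin. It rose by 2.13 in model livers (SE 0.43, adjusted p = 0.004 in limma) and fell by 2.37 with silibinin and by 2.49 with phloridzin (SE 0.43, adjusted p = 0.0056 and 0.0045). The 3 model livers were above the 9 others, and the lowest silibinin and phloridzin livers were below the controls. The lipase itself, Lpl, rose by 2.12 (SE 0.55, adjusted p = 0.013 in limma) and was at 5.18 FPKM in model liver 1 against 27.2 and 35.5 FPKM in the other two. Angptl4, another inhibitor of the lipase, fell by 1.32 (SE 0.22, adjusted p = 0.0016 in limma).

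Of 12 other plasma carrier proteins of hepatocytes, 1 rose and 1 fell in model against control, with a median of 0.06. With median ratios 0 rose and 2 fell in limma, with a median of -0.41. Afp, the fetal relative of albumin, rose by 1.88 (SE 0.65, adjusted p = 0.045 in limma) from a low level, with between 0.287 and 0.810 FPKM in control livers and between 2.94 and 9.42 FPKM in model livers. Igfals, a carrier of insulin-like growth factors, fell by 1.09 (SE 0.29, adjusted p = 0.016 in limma). Serpina7, the thyroxine-binding globulin, fell in phloridzin against model by 2.15 (SE 0.59, adjusted p = 0.039 in limma). Its level was 1.74, 4.68 and 0.0268 FPKM with phloridzin and between 7.22 and 13.7 FPKM in model livers. With median ratios Afp was at 1.61 (adjusted p = 0.08 in limma) and Serpina7 in phloridzin against model at -1.98 (adjusted p = 0.059).

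Of 23 tested transcription factors known to act on these genes, 3 rose (Cebpb, Foxa3 and Srebf1) and 3 fell (Cebpa, Creb3l3 and Rxra) in model against control, with a median of -0.09. Srebf1, a regulator of fatty acid synthesis, rose by 1.08 (adjusted p = 0.025 in limma) and fell with phloridzin by 1.18 (adjusted p = 0.037). Cebpb, an acute phase factor, rose by 0.78 (adjusted p = 0.019 in limma) and fell by 1.13 with silibinin and by 1.12 with phloridzin (adjusted p = 0.0078 and 0.0085). The falls of Cebpa, at -0.77, and of Creb3l3, a factor of the endoplasmic reticulum membrane that acts on Apoa4 and Apoa5, at -0.66, had adjusted p of 0.01 and 0.0013 in limma. In silibinin against model both rose, by 0.76 and 0.45 (adjusted p = 0.023 and 0.019 in limma). In phloridzin against model Creb3l3 rose by 0.40 (adjusted p = 0.035 in limma), and Cebpa was at 0.63 (adjusted p = 0.052, and 0.012 with median ratios). With median ratios 0 of the 23 rose in model against control in limma and 7 fell, so the rises of Cebpb, Foxa3 and Srebf1 depend on the scaling, and the fall of Srebf1 with phloridzin did not pass with median ratios either (adjusted p = 0.064 in limma). Foxa3, Cebpa, Creb3l3 and Rxra are named after their values were seen.

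In model against control 9 of 12 stellate cell and myofibroblast markers rose, with a median of 1.23, and 7 of 12 macrophage markers rose, with a median of 1.32, and 0 of either list fell in limma; at an unadjusted p under 0.05 there were 9 and 10. With median ratios 6 and 5 rose. The stellate list summed to between 92.1 and 113 FPKM in control livers and between 278 and 323 FPKM in model livers, with Dcn the most abundant, and Col1a1, the main collagen of scar tissue, rose by 4.35 (SE 0.57, adjusted p = 0.00042 in limma). The macrophage list summed to between 143 and 246 FPKM in control and 409 and 652 FPKM in model livers, with Lyz2 the most abundant, and Cd14 rose by 3.53 (SE 0.22, adjusted p = 6.3e-06 in limma). Of 12 hepatocyte markers 1 rose (Hamp) and 2 fell (Cyp2e1 and, named after its values were seen, Asgr1), with a median of -0.40, and Cyp2e1, the enzyme that activates CCl4, fell by 2.35 (SE 0.39, adjusted p = 0.0014 in limma). With median ratios 0 of the 12 rose and 6 fell in limma. In silibinin against model 1 hepatocyte marker fell, Hamp by 1.70 (adjusted p = 0.0058 in limma), and the list median was 0.30. In phloridzin against model 0 of the 12 rose or fell, with a median of 0.31. With median ratios 1 rose and 1 fell with silibinin, and 3 rose with phloridzin. Of all 13113 genes then tested, 732 rose and 830 fell in silibinin against model, and 614 and 810 in phloridzin against model. In silibinin against model 0 of the 12 stellate markers passed in limma (2 at an unadjusted p under 0.05) and 1 of the 12 macrophage markers fell, Cd14. In phloridzin against model 1 of each list fell, Lrat and Cd14. Of all 13158 genes tested, 345 rose and 1504 fell in silibinin against model, and 329 and 1362 in phloridzin against model. The stellate list summed to 258 ± 85.5 FPKM (SD, n = 3) with silibinin and 275 ± 90.8 FPKM with phloridzin, beside 293 ± 25.7 FPKM in model livers, and the macrophage list to 503 ± 79.0 FPKM and 609 ± 192 FPKM, beside 540 ± 123 FPKM. The part of the macrophage markers in the level of Apoe was not tested.

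Of 7 tested endothelial markers 0 rose or fell in model against control in limma, with 1 at an unadjusted p under 0.05, Clec4g the most abundant and Fcn3 at 0 in all livers. Of 4 tested cholangiocyte markers 2 rose, Krt19, named after its values were seen, by 0.73 and Spp1, the most abundant, by 1.94 (adjusted p = 0.019 and 0.0041 in limma), of which 1 passed with median ratios, Spp1. The cholangiocyte list summed to 15.6 ± 3.39 FPKM (SD, n = 3) in control, 53.2 ± 4.48 FPKM in model, 43.0 ± 14.4 FPKM in silibinin and 37.3 ± 15.5 FPKM in phloridzin livers. Most of each sum was Spp1 alone, with means of 11.4, 45.9, 35.1 and 29.0 FPKM in that order. Of 7 tested leukocyte markers 1 rose, Ptprc by 1.56 (adjusted p = 0.00025 in limma), with S100a8 the most abundant, and the list summed to 21.4 ± 6.08 FPKM in control, 61.8 ± 22.6 FPKM in model, 31.8 ± 8.14 FPKM in silibinin and 63.6 ± 27.2 FPKM in phloridzin livers. Of 2 tested intestine markers 1 fell, Lgals4, named after its values were seen, by 0.40 (adjusted p just under the threshold in limma), and Fabp2, the most abundant, is also expressed by the liver. With median ratios both fell. Lgals4 rose against model by 0.61 with silibinin and by 0.58 with phloridzin (adjusted p = 0.017 and 0.023 in limma). Of 5 haemoglobin list genes 0 rose or fell in model against control in limma, with 1 at an unadjusted p under 0.05, and with median ratios 2 fell. In silibinin against model 1 rose, Alas2 by 0.54 (adjusted p = 0.02 in limma). Against control 1 fell with silibinin and 1 with phloridzin, in both cases Hba-a1. Alas2 and Hba-a1 are named after their values were seen. The list, with Hbb-bs the most abundant, summed to between 978 and 1149 FPKM in control, 577 and 820 FPKM in model, 265 and 546 FPKM in silibinin and 308 and 896 FPKM in phloridzin livers.

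**Figure D5:**
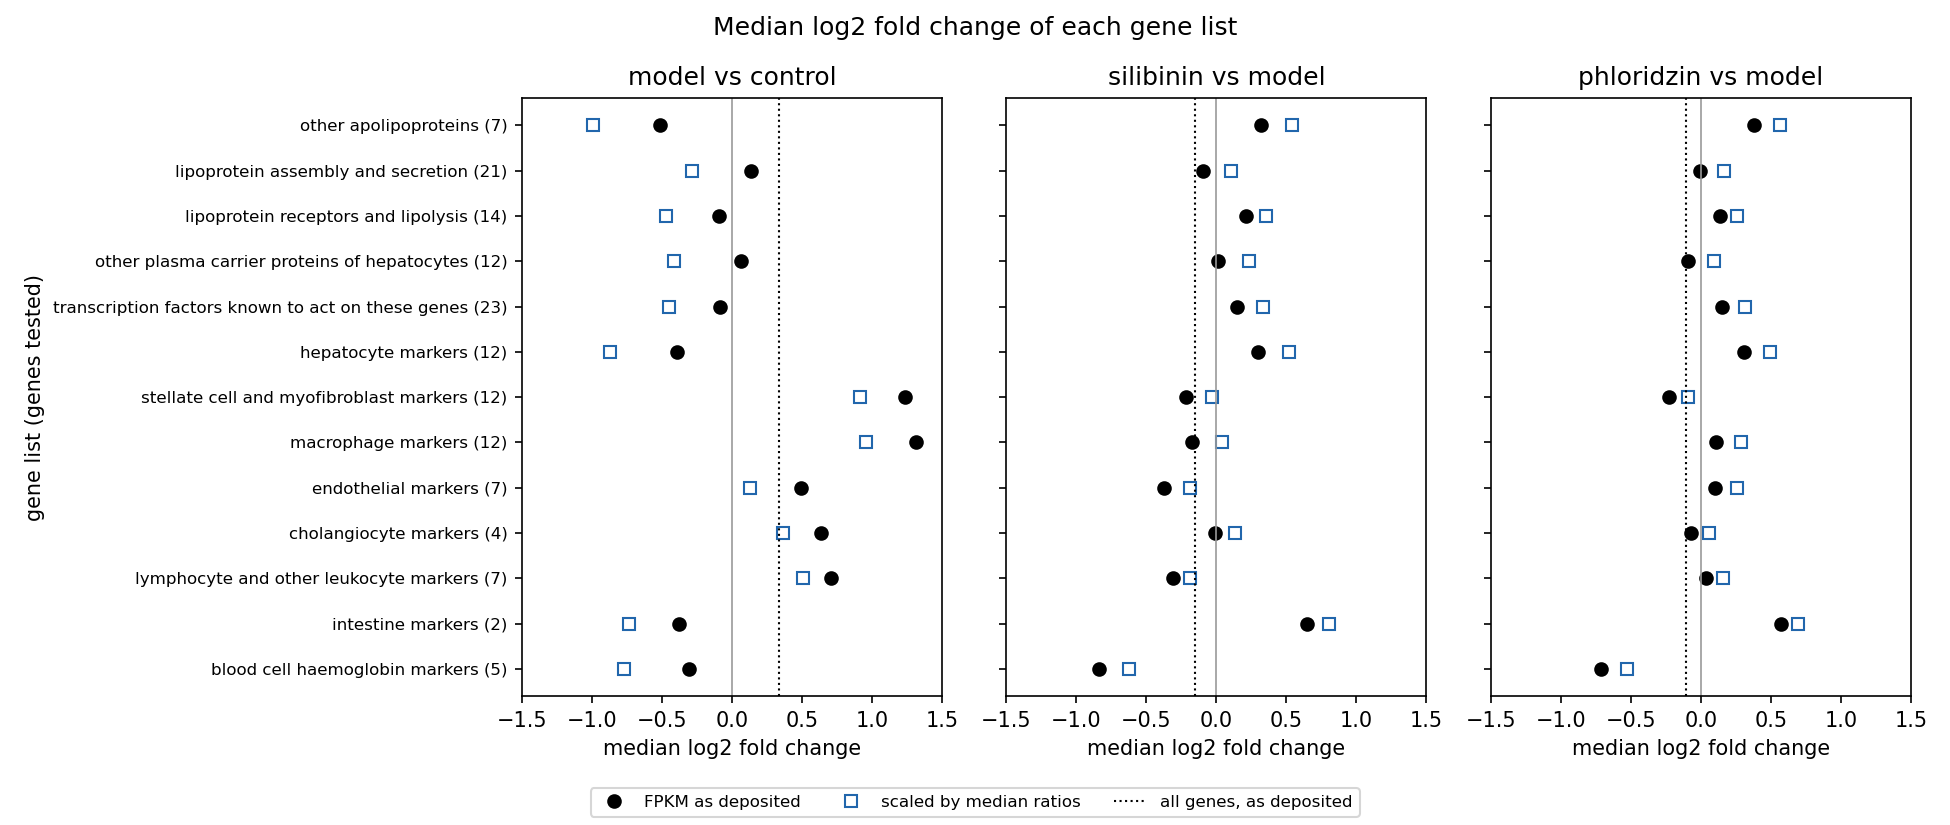
Median log2 fold change of each gene list in model against control and in each drug group against model, as deposited and scaled by median ratios, with a dotted line at the median of all genes as deposited. The stellate and macrophage lists lie at 1.23 and 1.32 in model against control, and the other apolipoproteins at -0.52.

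For each of the 10 genes the gene with the most similar values over the 12 livers was taken among 3412 others with a mean of at least 10 FPKM, as a description with no test. Pearson's r on the log2 scale was 0.92 for Apoa2 with Lhpp, 0.89 for Apoa1 with Tmem70, 0.88 for Alb with Fam213a and 0.88 for Apoa5 with Fah. It was 0.87 for Mttp with Sacm1l, 0.87 for Apoa4 with Traf4, 0.85 for Apoe with Gtf2i and 0.84 for Apoc3 with Trappc1. The lowest were 0.83 for Apob with Hsd17b6 and 0.82 for Ttr with Tmem150a. With 12 livers and 3412 genes a high r arises easily, and the livers share the groups and the scale.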

How the data were processed

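RNA of 12 mouse livers, 3 in each group, was measured. The authors deposited FPKM values for 169430 transcripts, 82136 of Ensembl, 68303 of NONCODE and 18991 assembled ones, and per the labels each liver has its own library. The submitters' processing notes name HISAT2 2.1.0, StringTie 1.3.3b, DESeq 1.28.0 and FastQC 0.11.5 with the build mm10, with no role. Only Ensembl transcripts carry a symbol, so a sum over Ensembl transcripts alone was identical. Depth was read from transcripts of at least 1500 bases, in which at least 98.7% of low values were within 0.05 of a whole number of fragments in each liver. FPKM keeps the composition of a library: where a few genes take more fragments, the others appear lower. Within groups the livers correlated at r between 0.92 and 0.95 over genes, between groups at r between 0.88 and 0.95, and none were identical.

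FPKM were summed per symbol and tested as log2(FPKM + 1) in limma 3.58.1 (R 4.3.3) with a trend in the variance, all 12 livers in 1 fit, two-sided, with Benjamini-Hochberg adjustment over the 13158 genes with a mean of at least 0.5. Fold changes are on this scale, which understates those of low genes. A gene is said to rise or fall at an adjusted p under 0.05. The fit was tested on simulated data. The genes named are the 10 members and the gene most similar to each member. From a list, up to 6 genes that were DE in a comparison with the model group are named. The most abundant gene of each marker list is named too. Other genes are named for overlap with a member, as markers at 0 in all livers, or after their values were seen, as stated there. The members and lists were chosen with earlier results of these data known. Alternatives covered the scaling (median ratios, totals), the pseudocount (0.1), the filter (none, a mean of 1), whether other groups enter the fit, a block for the replicate number, the transcript with the highest mean in place of the sum, the fold cutoff and each liver left out. Python 3.11.15 with scipy 1.17.1, numpy 2.4.6 and pandas 2.3.3 made the tables, and matplotlib 3.10.9 drew the figures.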

Additional observations from a re-analysis of the deposited data

How the results depend on the processing

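In model against control, where 0 of the 10 genes were DE and 1 fell in limma (3 at an unadjusted p under 0.05), scaling by median ratios gave 2 DE genes and 2 that passed the adjusted p (7.49% and 25.2% of all genes), and scaling to totals gave 1 DE gene (20.6%). Without a fold cutoff the count was 1. With no filter on low values 0 of the 10 passed the adjusted p (20.2% of all genes), where the SE of Apoa2 was 0.31 in place of 0.21 and its unadjusted p 0.037 in place of 0.0044, and with only the 2 groups compared 2 passed, Apoa2 and Apoa5 (34.8%). Leaving out 1 liver at a time gave between 0 and 1 DE genes (9.47% to 11.2% of all genes) and between 0 and 2 that passed (26.7% to 39.7%): Apoa2 did not pass without control liver 2 or without model liver 1, Apoa5 passed without silibinin liver 3, and Apoa4 was DE without phloridzin liver 1. Leaving out control liver 1 and phloridzin liver 1 together, an alternative chosen after seeing the data because Ttr was low there, gave 1 DE gene, Apoa4 at 1.44, and 2 that passed (11.3% and 32.8% of all genes). In silibinin against control, where 0 passed in limma (3 at an unadjusted p under 0.05), 1 passed with totals (Apob at 0.75, beside 15.0% of all genes), and leaving out 1 liver gave between 0 and 1 (1.03% to 9.43%). In the other 4 comparisons 0 of the 10 passed the adjusted p in limma under any alternative run. The cause of these moves was not tested.

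With the replicate number as a replicate block in the fit, 0 of the 10 were DE in each comparison in limma and 1 passed the adjusted p in model against control, Apoa2, as without the block, beside 10.4% DE and 33.1% past the adjusted p among all genes. Same-numbered livers share only a number: the correlation of their deviations from the group means was between -0.09 and 0.10 over 18 pairs, over 0.1 in 1.

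Of 60 fold changes, the sign of 33 turned in at least 1 of 21 alternatives, in 91 of 1260 values, while Apoa2 in model against control, the 1 that passed the test, kept its sign in all 21. A group of 3 livers limits what can be told: the standard error of Ttr, 1.90, and of Apoe, 0.86, allow far less precision than that of Apoa2, 0.21.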

Other observations

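The 18991 assembled transcripts have neither symbol nor position, and they were searched for loci, sets of transcripts with 1 locus number, that complement a gene of the 10. This search was made after the values were seen and has no test. Of 80 loci with at least 300 FPKM in a liver, the one whose sum with Ttr had the smallest SD over the 12 livers on the log2 scale, 0.29 against 2.34 for Ttr alone, was at 1916 and 2769 FPKM in control liver 1 and phloridzin liver 1, where Ttr was at 39.8 and 10.3 FPKM. It was listed at 0 in control liver 2 and phloridzin livers 2 and 3, where Ttr was at 2331, 2530 and 1837 FPKM, and lay between 692 and 1864 FPKM in the other 7. The sum was between 1451 and 2780 FPKM. A steady abundant locus also lowers such an SD, as the next one did with 0.39, and for the other 9 genes the smallest was between 0.13 and 0.36. Whether the transcripts of this locus lie at Ttr was not tested, since no position is given, so they were not added to Ttr in any comparison.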
